A study of Homo sapiens with 10 samples.

Results

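The genes described here had higher RNA levels, by at least 3-fold, in crotonate-treated than in untreated cells of both the extended pluripotent stem (hEPS) state and the primed state of one human embryonic stem cell (hESC) line. They were chosen from the deposited expression tables themselves. A gene qualified when its identifier stood in both tables, when it reached at least 1 FPKM (fragments per kilobase of transcript, scaled to the mapped fragments of a library) in 1 of the 2 columns of each table, and when FPKM + 1 was at least 3-fold higher in crotonate-treated than in untreated cells of each state. Of 12111 measured genes, 122 met the rule, and all 122 are named below. This was 1.01% of the genes, a share that the rule itself fixes. In hEPS cells 345 genes (2.85%) and in primed hESCs 782 genes (6.46%) were at least 3-fold higher with crotonate, so the 122 genes were 35.4% of the first set and 15.6% of the second. Lower levels by the same margin were seen for 53 genes (0.438%) in hEPS cells, for 605 genes (5%) in primed hESCs and for 19 genes (0.157%) in both.

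All cells came from H9, an established hESC line that is wild type by its label and here carried a GFP reporter driven by LTR7, a promoter of the HERVH family of endogenous retroviruses. Crotonate-treated hEPS cells and crotonate-treated primed hESCs had been kept in 10 mM crotonate for 12 days, and untreated cells of each state were their controls. Primed hESCs were grown without feeders. The hEPS cells had been converted from the same reporter cells in LCDM medium on inactivated mouse feeder fibroblasts, which were removed by adherence before collection. A further group, labelled Endoderm, had been made by treating the same hESCs with Activin A and BMP4, at the start together with the GSK3 inhibitor CHIR99021, and received no crotonate. GEO lists 2 samples in each of the 5 groups, but the tables hold a single FPKM column per group. Every number below is therefore 1 value per gene and group, with no replicate error, no test and no p-value, and whether replicates of 2 groups overlap could not be seen. Bulk RNA also cannot tell more cells expressing a gene from more RNA per cell.

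The hEPS columns summed to 610417 FPKM untreated and 596397 FPKM with crotonate, and the primed columns to 369750 and 373248 FPKM. Over all measured genes the untreated median was 15.3 FPKM in hEPS cells and 11.3 FPKM in primed hESCs. The 2 states come from separate tables on unlike scales. Levels set side by side between states below are deposited values without rescaling. Read totals were not used here. Changes are differences on the log2(FPKM + 1) scale, which understates the change of genes with low levels. The median change over all measured genes was -0.10 in hEPS cells and -0.10 in primed hESCs. Pluripotency markers were checked first. Their 12 genes summed to 1157 FPKM in crotonate-treated and 1737 FPKM in untreated hEPS cells, and to 246 FPKM in crotonate-treated and 2714 FPKM in untreated primed hESCs. Of the 11 that were measured, 0 were raised in either state, 1 was lowered in hEPS cells and 10 were lowered in primed hESCs. The label Endoderm was only partly borne out by markers. Of 23 endoderm and mesendoderm regulators, 9 reached 1 FPKM there and 4 were listed at 0, among them FOXA2 and GSC, whereas 11 of 12 mesoderm markers reached 1 FPKM. The group is therefore called by its label only.

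Crotonate is a short-chain fatty acid that cells convert to crotonyl-CoA, the donor for lysine crotonylation of histones and other proteins. Endoderm, the germ layer that forms gut, liver and pancreas, arises from mesendoderm under Nodal and Activin signaling, and factors of the GATA and SOX families are among its regulators. Transforming growth factor-beta (TGF-beta) is known for inducing collagens and contractile proteins, and interferons for inducing antiviral proteins, both through secreted ligands and membrane receptors.

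The median level of the 122 genes was 25.6 FPKM in crotonate-treated and 4.80 FPKM in untreated hEPS cells. In primed hESCs it was 23.5 FPKM with crotonate and 1.98 FPKM without. Their change ranged between 1.60 and 5.83 in hEPS cells, with a median of 2.13, and between 1.61 and 8.52 in primed hESCs, with a median of 2.68. It was the larger in hEPS cells for 37 genes and in primed hESCs for 85. A rise of at least 4-fold in both states was seen for 56 genes, and of at least 8-fold in both for 8. Starting levels differed between the states. Of the 122 genes, 23 (18.9%) were under 1 FPKM in untreated hEPS cells, against 3.2% of all measured genes, and 42 (34.4%) were so in untreated primed hESCs, against 4.39%. These shares follow in part from the filter, because a gene under 1 FPKM without treatment counted as measured only when its treated level reached 1 FPKM. The untreated level was higher in hEPS cells than in primed hESCs for 90 genes (73.8%), close to the 70.3% of all measured genes.

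**Figure D1:**
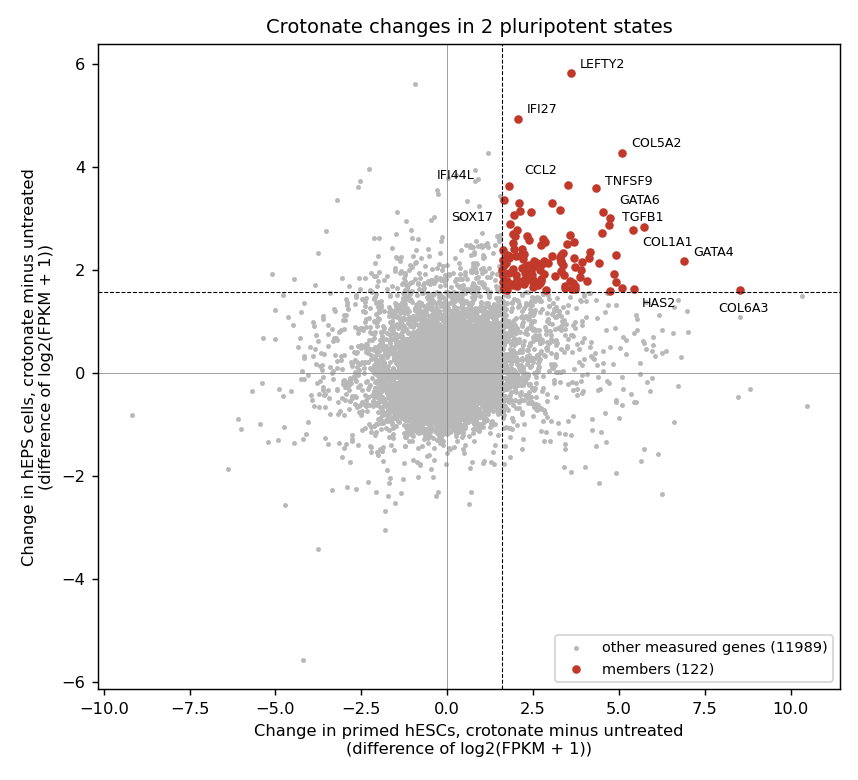
Change with crotonate in hEPS cells (vertical axis) and in primed hESCs (horizontal axis), both as the difference of log2(FPKM + 1), crotonate-treated minus untreated. Red points are the 122 genes past the dashed 3-fold lines on both axes, and gray points are the other measured genes. LEFTY2 has the largest change in hEPS cells (5.83) and COL6A3 the largest in primed hESCs (8.52) among the red points.

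Regulators of endoderm and mesendoderm, most of them transcription factors, were the first group. Of 15 measured regulators on a list of such genes, 11 were raised in hEPS cells (median change 2.14), where 2.85% of all genes were, and 8 in primed hESCs (median 1.80), where 6.46% of all genes were. By the same margin 0 were lowered in hEPS cells and 1 in primed hESCs. The lowered gene was OTX2, with 5.99 FPKM in crotonate-treated and 20.1 FPKM in untreated primed hESCs. Of the 15, 7 were raised in both, against 1.01% of all genes. CXCR4, a chemokine receptor described below, was among the 7. These shares of all genes are the background for every list below, and the lists were chosen with earlier results known. GATA6, a zinc-finger factor of early endoderm (chr18:22169589-22202528, hg38), had 85.3 FPKM in crotonate-treated and 9.72 FPKM in untreated hEPS cells, and 26.4 FPKM in crotonate-treated and 0.0161 FPKM in untreated primed hESCs. GATA4, the related factor of endoderm and heart (chr8:11676959-11760002), had 97.8 FPKM in crotonate-treated and 20.9 FPKM in untreated hEPS cells, and 123 FPKM in crotonate-treated and 0.0482 FPKM in untreated primed hESCs. Both factors were thus near 0 in untreated primed hESCs and already expressed in untreated hEPS cells. SOX17, the HMG-box factor used to define definitive endoderm, had 191 FPKM in crotonate-treated and 29.2 FPKM in untreated hEPS cells, whereas in primed hESCs it had 3.97 FPKM with crotonate and was listed at 0 without. Its level in treated hEPS cells stood far above that in treated primed hESCs. The changes on the log scale were 2.67 in hEPS cells and 2.31 in primed hESCs. The second depended on the 1 FPKM added before taking logs, because the untreated value was 0. With 0.1 FPKM added instead, the SOX17 changes were 2.71 in hEPS cells and 5.35 in primed hESCs. LHX1, a LIM-homeobox factor of anterior mesendoderm, had 9.13 FPKM in crotonate-treated and 0.748 FPKM in untreated hEPS cells, and 3.45 FPKM in crotonate-treated and 0.168 FPKM in untreated primed hESCs. FOXQ1, a forkhead factor, had 25.4 FPKM in crotonate-treated and 4.46 FPKM in untreated hEPS cells, and 2.67 FPKM in crotonate-treated and 0.0523 FPKM in untreated primed hESCs. GATA3, a factor of trophoblast and several other lineages, had 8.55 FPKM in crotonate-treated and 2.08 FPKM in untreated hEPS cells, and 12.7 FPKM in crotonate-treated and 0.0297 FPKM in untreated primed hESCs.

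Levels of these factors in Endoderm fell into separate ranges. GATA4 was at 99.9 FPKM and GATA3 at 20.1 FPKM in Endoderm, so both were abundant there. GATA6 was at 3.40 FPKM. LHX1, FOXQ1 and SOX17 were under 1 FPKM in Endoderm, at 0.420, 0.195 and 0.0721 FPKM. Of the other regulators on the list, EOMES, MIXL1, HHEX and FOXA2 missed the rule in primed hESCs and EVX1 missed it in hEPS cells. OTX2, FOXA3 and TBX6 missed it in both states. FOXA3 changed by 0.87 in hEPS cells and -1.58 in primed hESCs. HHEX changed by 3.26 in hEPS cells and 0.94 in primed hESCs, and FOXA2 by 1.63 in hEPS cells and 1.51 in primed hESCs. EOMES, a T-box factor of mesendoderm, had 110.9 FPKM in crotonate-treated and 28.2 FPKM in untreated hEPS cells, but only 1.11 FPKM in crotonate-treated and 0.0460 FPKM in untreated primed hESCs. MIXL1, a homeobox factor of the primitive streak, had 344 FPKM in crotonate-treated and 60.6 FPKM in untreated hEPS cells, and 2.22 FPKM in crotonate-treated and 0.496 FPKM in untreated primed hESCs. EVX1, a homeobox factor of the primitive streak, had 2.44 FPKM in crotonate-treated and 2.94 FPKM in untreated hEPS cells, whereas it had 25 FPKM in crotonate-treated primed hESCs and was listed at 0 without. In Endoderm EOMES was at 0.214 FPKM, MIXL1 at 2.31 FPKM and EVX1 at 25.8 FPKM.

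Further transcriptional regulators were KLF2, FOXS1, HES4, ATF3, CSRNP1, TLE2, NFATC1 and LMCD1. KLF2, a flow-responsive factor of endothelium, had 37.0 FPKM in crotonate-treated and 6.61 FPKM in untreated hEPS cells, and 3.90 FPKM in crotonate-treated and 0.0434 FPKM in untreated primed hESCs. HES4, a bHLH repressor of the Hairy family, had 183 FPKM in crotonate-treated and 42.9 FPKM in untreated hEPS cells, and 46.0 FPKM in crotonate-treated and 2.55 FPKM in untreated primed hESCs. ATF3, a stress-induced factor, had 363 FPKM in crotonate-treated and 112 FPKM in untreated hEPS cells, and 27.7 FPKM in crotonate-treated and 5.97 FPKM in untreated primed hESCs. FOXS1 (a forkhead factor), CSRNP1 (a nuclear factor induced by AXIN), TLE2 (a Groucho-family corepressor) and NFATC1 (a calcineurin-dependent factor) changed by between 1.72 and 2.18 in hEPS cells and by between 1.99 and 3.32 in primed hESCs on the log2 scale. LMCD1, a LIM-domain protein that restrains GATA factors in other systems, stood at the edge of the rule in primed hESCs with 13.1 FPKM with crotonate and 3.63 FPKM without. In Endoderm these 8 genes lay between 1.65 FPKM for KLF2 and 96.2 FPKM for HES4.

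Among secreted ligands of the TGF-beta superfamily and their processing, LEFTY2, TGFB1, ACVRL1 and FURIN met the rule. LEFTY2, a Nodal antagonist that Nodal itself induces (chr1:225936598-225941383), had 810.1 FPKM in crotonate-treated and 13.3 FPKM in untreated hEPS cells, the largest change in that state, and 41.7 FPKM in crotonate-treated and 2.51 FPKM in untreated primed hESCs. TGFB1, which encodes the ligand TGF-beta 1 (chr19:41301587-41353922), had 158 FPKM in crotonate-treated and 20.7 FPKM in untreated hEPS cells, and 144 FPKM in crotonate-treated and 4.51 FPKM in untreated primed hESCs. With crotonate TGFB1 thus reached much the same level in both states. ACVRL1, a type I receptor for BMP9 and BMP10 in endothelium, had 4.03 FPKM in crotonate-treated and 0.168 FPKM in untreated hEPS cells, and 12.2 FPKM in crotonate-treated and 0.268 FPKM in untreated primed hESCs. FURIN, the convertase that cleaves precursors of Nodal and TGF-beta 1, had 118 FPKM in crotonate-treated and 37.3 FPKM in untreated hEPS cells, and 250.3 FPKM in crotonate-treated and 19.3 FPKM in untreated primed hESCs. In Endoderm the levels were 191 FPKM for TGFB1, 173 FPKM for FURIN, 37.0 FPKM for LEFTY2 and 3.38 FPKM for ACVRL1.

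The rest of the Nodal and Activin list moved differently in the 2 states. Of 21 measured genes, 9 were raised and 0 lowered in hEPS cells (median change 1.13), whereas 4 were raised and 3 lowered in primed hESCs (median -0.03). LEFTY1, the paralog of LEFTY2, had 179 FPKM in crotonate-treated and 10.5 FPKM in untreated hEPS cells, but 1.16 FPKM in crotonate-treated and 9.48 FPKM in untreated primed hESCs. CER1, another secreted Nodal antagonist, had 1962 FPKM in crotonate-treated and 39.0 FPKM in untreated hEPS cells, but 0.342 FPKM in crotonate-treated and 1.6 FPKM in untreated primed hESCs. LEFTY2 and LEFTY1 are near-identical paralogs, and the sources used here do not state how reads shared by them were counted. Of 29 measured TGF-beta and BMP genes, 4 were raised in hEPS cells (median 0.29) and 13 in primed hESCs (median 1.47), with 0 lowered in either. SMAD7, the inhibitory SMAD that TGF-beta induces, lay just under the threshold, with changes of 1.89 in hEPS cells and 1.56 in primed hESCs.

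Cytokines and chemokines came next. TNFSF9, the ligand of the T cell costimulator 4-1BB, had 23.4 FPKM in crotonate-treated and 1.02 FPKM in untreated hEPS cells, and 34.1 FPKM in crotonate-treated and 0.747 FPKM in untreated primed hESCs. CCL2, the chemokine that attracts monocytes, had 136 FPKM in crotonate-treated and 9.89 FPKM in untreated hEPS cells, and 73.3 FPKM in crotonate-treated and 5.51 FPKM in untreated primed hESCs. IL11, a cytokine of the IL-6 family that TGF-beta induces in fibroblasts, had 8.50 FPKM in crotonate-treated and 1.08 FPKM in untreated hEPS cells, and 8.67 FPKM in crotonate-treated and 0.357 FPKM in untreated primed hESCs. The deposited IL11 values of treated cells were thus close in the 2 tables. IL32, a proinflammatory cytokine, had 49.6 FPKM in crotonate-treated and 6.95 FPKM in untreated hEPS cells, and 6.31 FPKM in crotonate-treated and 0.868 FPKM in untreated primed hESCs. TNFAIP3, the deubiquitinase A20 that limits NF-kB signaling, had 28.1 FPKM in crotonate-treated and 6.09 FPKM in untreated hEPS cells, and 7.51 FPKM in crotonate-treated and 0.882 FPKM in untreated primed hESCs. IL32 and TNFAIP3 were thus under 1 FPKM in untreated primed hESCs. PGF, a ligand of the VEGF receptor FLT1, had 13.7 FPKM in crotonate-treated and 2.67 FPKM in untreated hEPS cells, and 44.6 FPKM in crotonate-treated and 2.09 FPKM in untreated primed hESCs. In Endoderm, IL11 (12.0 FPKM), PGF (10.3 FPKM), CCL2 (9.99 FPKM) and IL32 (5.26 FPKM) stood above TNFSF9 (3.21 FPKM) and TNFAIP3 (2.25 FPKM).

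Of 20 measured genes of the TNF and NF-kB pathway, 9 were raised in hEPS cells and 3 in primed hESCs, and none was lowered at this threshold. The pathway genes raised in hEPS cells alone included CFLAR, an inhibitor of caspase-8, at 52.9 FPKM in crotonate-treated and 2.93 FPKM in untreated hEPS cells, against 1.05 FPKM in crotonate-treated and 0.101 FPKM in untreated primed hESCs. Of 18 measured cytokines, chemokines and receptors, 10 were raised and 1 was lowered in each state, with medians of 2.07 in hEPS cells and 1.82 in primed hESCs.

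Receptors formed the next group. ACKR3, a scavenging receptor for CXCL12 (chr2:236567787-236582354), had 57.7 FPKM in crotonate-treated and 5.56 FPKM in untreated hEPS cells, and 15.7 FPKM in crotonate-treated and 0.707 FPKM in untreated primed hESCs. CXCR4, the signaling receptor for the same chemokine and a surface marker of definitive endoderm, had 47.4 FPKM in crotonate-treated and 10.0 FPKM in untreated hEPS cells, and 65.4 FPKM in crotonate-treated and 2.08 FPKM in untreated primed hESCs. CMKLR1, the chemerin receptor, had 5.54 FPKM in crotonate-treated and 0.00968 FPKM in untreated hEPS cells, and 3.58 FPKM in crotonate-treated and 0.222 FPKM in untreated primed hESCs. The ligands of these receptors did not meet the rule. CXCL12 had 4.69 FPKM in crotonate-treated and 27.4 FPKM in untreated hEPS cells, and 31.9 FPKM in crotonate-treated and 19.6 FPKM in untreated primed hESCs. Chemerin (RARRES2) had 19.2 FPKM in crotonate-treated and 40.4 FPKM in untreated hEPS cells, and 28.2 FPKM in crotonate-treated and 127 FPKM in untreated primed hESCs. S1PR3, a sphingosine-1-phosphate receptor, had 47.9 FPKM in crotonate-treated and 7.74 FPKM in untreated hEPS cells, and 32.7 FPKM in crotonate-treated and 4.09 FPKM in untreated primed hESCs. Its relative S1PR5 had 3.46 FPKM in crotonate-treated and 0.193 FPKM in untreated hEPS cells, and 9.90 FPKM in crotonate-treated and 2.53 FPKM in untreated primed hESCs. Of 13 measured G protein-coupled receptors on the list, 8 were raised in hEPS cells and 9 in primed hESCs, and these shared 8 genes. GIPR (receptor for the incretin GIP), TBXA2R (thromboxane receptor) and GPR37 completed the 8, with changes of between 1.61 and 1.81 in hEPS cells and between 2.02 and 2.88 in primed hESCs. The orphan receptor GPRC5C changed by 1.80 in hEPS cells and by 2.42 in primed hESCs. IL2RB, the beta chain of the IL-2 receptor, had 6.53 FPKM in crotonate-treated and 0.770 FPKM in untreated hEPS cells, and 7.51 FPKM in crotonate-treated and 0.491 FPKM in untreated primed hESCs. PLXNA2, a semaphorin receptor and the only one of 22 measured plexins, neuropilins and semaphorins to meet the rule, had 33.7 FPKM in crotonate-treated and 6.07 FPKM in untreated hEPS cells, and 5.29 FPKM in crotonate-treated and 0.411 FPKM in untreated primed hESCs. ITGA9 (an integrin that binds tenascin-C), COLEC12 (a scavenger receptor), MCAM and ELFN1 (adhesion proteins) had changes of between 1.70 and 2.22 in hEPS cells. In Endoderm ACKR3 was at 26.98 FPKM, CXCR4 at 34.7 FPKM and MCAM at 59.7 FPKM, whereas CMKLR1 was at 0.350 FPKM.

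Extracellular matrix genes supplied 10 of the 122, from 29 measured genes of that list. Of these 29, 12 were raised in hEPS cells (median change 1.39) and 20 in primed hESCs (median 3.33). COL5A2, a chain of type V collagen (chr2:189031898-189225312), led all genes when ranked by the smaller of its changes, with 108 FPKM in crotonate-treated and 4.60 FPKM in untreated hEPS cells, and 282 FPKM in crotonate-treated and 7.25 FPKM in untreated primed hESCs. COL1A1, the alpha-1 chain of type I collagen (chr17:50184101-50201632), had 244 FPKM in crotonate-treated and 34.6 FPKM in untreated hEPS cells, and 921 FPKM in crotonate-treated and 20.6 FPKM in untreated primed hESCs. COL6A2, a chain of type VI collagen, had 274 FPKM in crotonate-treated and 79.6 FPKM in untreated hEPS cells, and 1383 FPKM in crotonate-treated and 44.6 FPKM in untreated primed hESCs. COL6A3, its partner chain, had only 3.06 FPKM in crotonate-treated and 0.327 FPKM in untreated hEPS cells, but 734 FPKM in crotonate-treated and 1.01 FPKM in untreated primed hESCs. The partner chains were therefore both abundant in treated primed hESCs and very unequal in treated hEPS cells. COL6A1, the remaining chain of that trimer, just missed the rule, with changes of 1.55 in hEPS cells and 4.12 in primed hESCs. LGALS1, the secreted lectin galectin-1, had 539 FPKM in crotonate-treated and 74.2 FPKM in untreated hEPS cells, and 531 FPKM in crotonate-treated and 8.97 FPKM in untreated primed hESCs. Its deposited values in treated cells were close in the 2 tables. TNC (tenascin-C) had 149 FPKM in crotonate-treated and 29.5 FPKM in untreated hEPS cells, and 29.9 FPKM in crotonate-treated and 2.08 FPKM in untreated primed hESCs. ECM1, a secreted glycoprotein of skin and vessels, had 69.9 FPKM in crotonate-treated and 6.17 FPKM in untreated hEPS cells, and 10.7 FPKM in crotonate-treated and 0.415 FPKM in untreated primed hESCs. BGN (biglycan), MATN3 (a matrilin) and LAMC3 (a laminin chain) had changes of between 1.93 and 2.40 in hEPS cells and between 1.62 and 4.87 in primed hESCs.

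Not every fibrillar collagen was raised in hEPS cells. COL3A1, the type III chain, had 1.39 FPKM in crotonate-treated and 2.70 FPKM in untreated hEPS cells, whereas it had 1415 FPKM in crotonate-treated primed hESCs and was listed at 0 without. Markers of other cell types were read beside these genes. The 10 fibroblast markers summed to 429 FPKM in crotonate-treated and 123 FPKM in untreated hEPS cells, and to 3182 FPKM in crotonate-treated and 252 FPKM in untreated primed hESCs, and 2 of them (COL1A1 and S100A4) are themselves among the 122. The 12 mesoderm markers summed to 45.3 FPKM in crotonate-treated and 30.8 FPKM in untreated hEPS cells, and to 881 FPKM in crotonate-treated and 27.9 FPKM in untreated primed hESCs. Of the mesoderm markers, 5 reached 1 FPKM with and 5 without crotonate in hEPS cells, against 11 with and 2 without in primed hESCs. The part of such cells in the matrix changes was not tested. In Endoderm, COL1A1 stood at 836 FPKM, COL6A2 at 576 FPKM, LGALS1 at 186 FPKM, COL6A3 at 172 FPKM, COL5A2 at 170.3 FPKM, TNC at 111 FPKM and ECM1 at 12.5 FPKM.

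Proteins that build or cut the matrix were fewer. Of 20 measured matrix-modifying enzymes and inhibitors, 5 were raised in hEPS cells and 13 in primed hESCs, and 3 in both. ADAM19, a membrane metalloproteinase, had 77.1 FPKM in crotonate-treated and 13.6 FPKM in untreated hEPS cells, and 36.9 FPKM in crotonate-treated and 8.85 FPKM in untreated primed hESCs. ADAMTS4, an aggrecanase, had 12.7 FPKM in crotonate-treated and 1.002 FPKM in untreated hEPS cells, and 13.9 FPKM in crotonate-treated and 2.66 FPKM in untreated primed hESCs. LOXL4, a lysyl oxidase that cross-links collagen, had 5.92 FPKM in crotonate-treated and 0.602 FPKM in untreated hEPS cells, and 5.63 FPKM in crotonate-treated and 0.274 FPKM in untreated primed hESCs. The deposited values of ADAMTS4 and LOXL4 in treated cells were close in the 2 tables, and that of ADAM19 was higher in the hEPS table. HAS2, the main hyaluronan synthase of embryos, had 74.0 FPKM in crotonate-treated and 23.0 FPKM in untreated hEPS cells, and 99.7 FPKM in crotonate-treated and 1.297 FPKM in untreated primed hESCs. NID1 (nidogen of basement membranes), ISLR and CCDC3 (secreted proteins) and ANGPTL4 (a secreted inhibitor of lipoprotein lipase) had changes of between 1.65 and 1.84 in hEPS cells and between 2.49 and 5.09 in primed hESCs. ISLR was the most unequal of these, with 17.9 FPKM in crotonate-treated and 5.05 FPKM in untreated hEPS cells, and 36.0 FPKM in crotonate-treated and 0.0826 FPKM in untreated primed hESCs.

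The cytoskeleton and muscle list held more of the 122 genes than any other of the 17 lists, 12 of 23 measured. Because the lists were chosen with earlier results known, this order describes the lists only. Of the 23, 13 were raised in hEPS cells (median 1.86), where 2.85% of all genes were, and 16 in primed hESCs (median 2.78), where 6.46% were. By the same margin 0 were lowered in hEPS cells and 1 in primed hESCs. DES (desmin, an intermediate filament of muscle) had 13.3 FPKM in crotonate-treated and 1.84 FPKM in untreated hEPS cells, and 13.7 FPKM in crotonate-treated and 0.418 FPKM in untreated primed hESCs. SYNPO (synaptopodin, an actin-associated protein) had 14.1 FPKM in crotonate-treated and 1.48 FPKM in untreated hEPS cells, and 17.6 FPKM in crotonate-treated and 1.71 FPKM in untreated primed hESCs. Deposited values of both genes in treated cells were close in the 2 tables and close to the Endoderm values of 13.6 FPKM for DES and 22.5 FPKM for SYNPO. PDLIM3, an actinin-binding protein of the Z disc, had 15.4 FPKM in crotonate-treated and 1.90 FPKM in untreated hEPS cells, and 42.0 FPKM in crotonate-treated and 2.83 FPKM in untreated primed hESCs. ANKRD1, a stretch-responsive cardiac protein and a target of YAP, had 43.6 FPKM in crotonate-treated and 7.73 FPKM in untreated hEPS cells, and 24.5 FPKM in crotonate-treated and 0.415 FPKM in untreated primed hESCs. CRIP1, a small LIM protein, had 26.2 FPKM in crotonate-treated and 4.57 FPKM in untreated hEPS cells, and 48.4 FPKM in crotonate-treated and 0.632 FPKM in untreated primed hESCs. ANKRD1 and CRIP1 were thus under 1 FPKM in untreated primed hESCs and above it in untreated hEPS cells. TAGLN2 (transgelin-2, an actin binder) had 722 FPKM in crotonate-treated and 146 FPKM in untreated hEPS cells, and 219 FPKM in crotonate-treated and 64.9 FPKM in untreated primed hESCs. ANXA1 (annexin A1), DLC1 (a GTPase-activating protein), EHD2 (a protein of caveolae), SYNM (synemin), PPP1R14A (an inhibitor of myosin phosphatase) and CDC42EP5 (a CDC42 effector) had changes of between 1.74 for SYNM and 3.88 for CDC42EP5 in primed hESCs. In hEPS cells the same 6 genes changed by between 1.79 for SYNM and 3.07 for EHD2.

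Smooth muscle genes outside the rule set a limit to this group. ACTA2, smooth muscle actin, had 9.05 FPKM in crotonate-treated and 7.80 FPKM in untreated hEPS cells, against 54.8 FPKM in crotonate-treated and 1.41 FPKM in untreated primed hESCs. TAGLN had 118 FPKM in crotonate-treated and 108 FPKM in untreated hEPS cells, against 37.0 FPKM in crotonate-treated and 124 FPKM in untreated primed hESCs. Structural genes outside the list were KRT8, LMNA, STMN2, KIFC3, AHNAK, MYOF, EMP3 and S100A4. KRT8 (keratin 8, of simple epithelia) had 1279 FPKM in crotonate-treated and 412 FPKM in untreated hEPS cells, and 677 FPKM in crotonate-treated and 214 FPKM in untreated primed hESCs. LMNA (lamins A and C of the nuclear envelope) had 197 FPKM in crotonate-treated and 50.4 FPKM in untreated hEPS cells, and 63.2 FPKM in crotonate-treated and 17.6 FPKM in untreated primed hESCs. Deposited values of both genes were higher in hEPS cells than in primed hESCs, with and without crotonate. STMN2, a tubulin-binding protein known from neurons, had 254 FPKM in crotonate-treated and 27.9 FPKM in untreated hEPS cells, and 108 FPKM in crotonate-treated and 3.74 FPKM in untreated primed hESCs. S100A4, a calcium-binding protein of motile cells, had 45.9 FPKM in crotonate-treated and 12.9 FPKM in untreated hEPS cells, and 121 FPKM in crotonate-treated and 8.57 FPKM in untreated primed hESCs. KIFC3 (a kinesin), AHNAK and MYOF (large membrane-associated proteins) and EMP3 (a membrane protein) had changes of between 1.63 and 1.96 in hEPS cells.

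**Figure D2:**
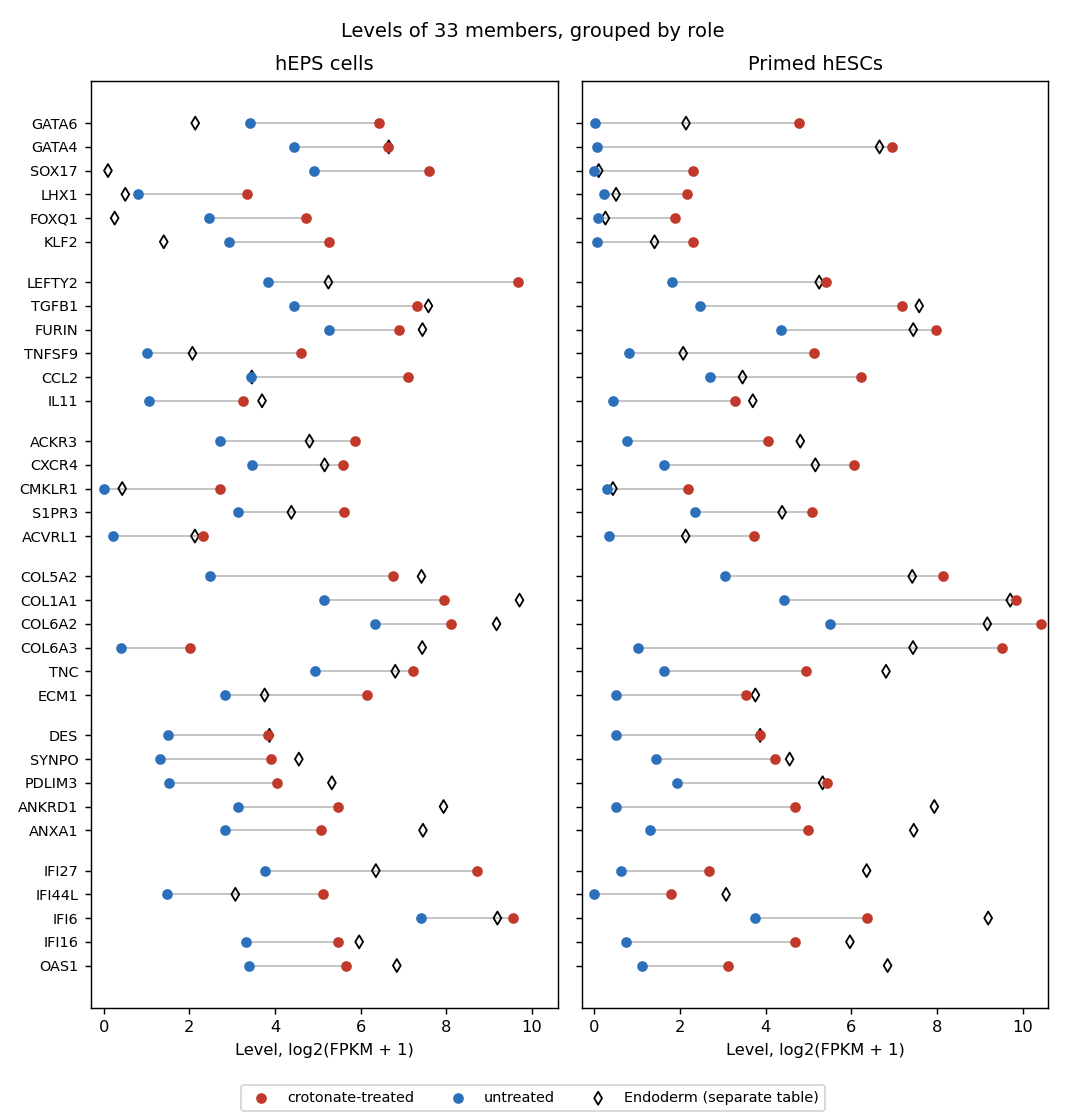
Levels of 33 of the genes on the log2(FPKM + 1) scale in hEPS cells (left) and primed hESCs (right), in blocks of regulators, signals, receptors, matrix, cytoskeleton and interferon-inducible genes. Red points are crotonate-treated cells, blue points untreated cells and open diamonds the group labelled Endoderm, whose values come from a separate table and are drawn in both panels. Each point is a single deposited value without an error. SOX17, at 191 FPKM in treated hEPS cells, lies near 0 in Endoderm, whereas GATA4 lies near its treated levels in both panels.

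Interferon-inducible genes supplied 8 of the 122. Of 44 measured genes of this kind, 25 were raised and 0 lowered in hEPS cells, with a list median of 1.64. In primed hESCs 10 were raised and 4 lowered, with a median of 0.56. The 8 were IFI27, IFI44L, IFI6, IFI16, OAS1, EPSTI1, IFIT5 and SLFN5. IFI27, a mitochondrial protein induced by type I interferon, had 416 FPKM in crotonate-treated and 12.6 FPKM in untreated hEPS cells, and 5.38 FPKM in crotonate-treated and 0.527 FPKM in untreated primed hESCs. IFI6, a membrane protein of the same family, had 756 FPKM in crotonate-treated and 170.2 FPKM in untreated hEPS cells, and 81.9 FPKM in crotonate-treated and 12.5 FPKM in untreated primed hESCs. IFI44L had 33.7 FPKM in crotonate-treated and 1.78 FPKM in untreated hEPS cells, and in primed hESCs 2.45 FPKM with crotonate while it was listed at 0 without. All 3 were higher in treated hEPS cells than in treated primed hESCs. IFI16, a sensor of nuclear DNA, had 43.5 FPKM in crotonate-treated and 8.94 FPKM in untreated hEPS cells, and 24.5 FPKM in crotonate-treated and 0.666 FPKM in untreated primed hESCs. OAS1, which makes the second messenger that activates RNase L, had 49.8 FPKM in crotonate-treated and 9.47 FPKM in untreated hEPS cells, and 7.70 FPKM in crotonate-treated and 1.16 FPKM in untreated primed hESCs. EPSTI1, IFIT5 (an RNA-binding protein) and SLFN5 (of the Schlafen family) had changes of between 1.61 and 2.19 in hEPS cells and between 1.63 and 1.73 in primed hESCs. LY6E, an interferon-inducible membrane protein outside the list, had 221 FPKM in crotonate-treated and 66.2 FPKM in untreated hEPS cells, and 126 FPKM in crotonate-treated and 34.1 FPKM in untreated primed hESCs.

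Endoderm, which received no crotonate, had high levels of several of these genes, 584 FPKM for IFI6, 114 FPKM for OAS1, 80.9 FPKM for IFI27 and 61.5 FPKM for IFI16. Some genes of the same pathway that did not meet the rule went the other way in primed hESCs. IFIT2 had 32.5 FPKM in crotonate-treated and 10.8 FPKM in untreated hEPS cells, but 5.16 FPKM in crotonate-treated and 18.7 FPKM in untreated primed hESCs. HERC5, a ligase for ISG15, had 40.6 FPKM in crotonate-treated and 20.9 FPKM in untreated hEPS cells, but 7.14 FPKM in crotonate-treated and 32.7 FPKM in untreated primed hESCs.

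Promoter sequences are shown for 5 of the 8 interferon-inducible genes and for a pair of NF-kB-related genes because the window before their start holds a known response element. Each line gives the 250 bases before the RefSeq start on the strand of the gene, 5′ to 3′, from GRCh38.p14. Capitals mark matches to the interferon response element (GAAA, any 2 bases, GAAA) or, for TNFAIP3 and IL32, to the NF-kB site (GGGA, any base, TTTCC), each on either strand. The windows are chr1:27672193-27672442 (minus strand) for IFI6, chr14:94110486-94110735 (plus) for IFI27, chr1:78620198-78620447 (plus) for IFI44L, chr13:42992242-42992491 (minus) for EPSTI1, chr10:89414318-89414567 (plus) for IFIT5, chr6:137867009-137867258 (plus) for TNFAIP3 and chr16:3065153-3065402 (plus) for IL32.
IFI6: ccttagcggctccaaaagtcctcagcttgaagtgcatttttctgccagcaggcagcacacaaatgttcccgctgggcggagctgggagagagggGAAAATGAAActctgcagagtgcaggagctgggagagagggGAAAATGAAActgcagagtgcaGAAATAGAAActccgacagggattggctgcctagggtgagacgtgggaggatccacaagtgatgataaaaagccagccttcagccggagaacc
IFI27: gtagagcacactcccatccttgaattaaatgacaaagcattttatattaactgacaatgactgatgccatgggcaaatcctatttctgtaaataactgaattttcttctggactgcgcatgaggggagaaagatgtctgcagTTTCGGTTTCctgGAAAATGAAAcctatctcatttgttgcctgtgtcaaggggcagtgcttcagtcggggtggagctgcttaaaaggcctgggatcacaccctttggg
IFI44L: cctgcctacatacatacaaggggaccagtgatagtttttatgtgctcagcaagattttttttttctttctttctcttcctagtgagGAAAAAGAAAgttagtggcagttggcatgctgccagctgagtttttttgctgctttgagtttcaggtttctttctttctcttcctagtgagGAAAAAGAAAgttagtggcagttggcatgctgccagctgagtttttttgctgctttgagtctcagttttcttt
EPSTI1: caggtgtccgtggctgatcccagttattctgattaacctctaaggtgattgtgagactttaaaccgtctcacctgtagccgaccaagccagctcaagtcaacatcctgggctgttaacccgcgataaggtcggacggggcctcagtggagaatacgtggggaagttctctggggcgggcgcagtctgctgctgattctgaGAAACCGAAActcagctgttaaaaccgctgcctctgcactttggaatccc
IFIT5: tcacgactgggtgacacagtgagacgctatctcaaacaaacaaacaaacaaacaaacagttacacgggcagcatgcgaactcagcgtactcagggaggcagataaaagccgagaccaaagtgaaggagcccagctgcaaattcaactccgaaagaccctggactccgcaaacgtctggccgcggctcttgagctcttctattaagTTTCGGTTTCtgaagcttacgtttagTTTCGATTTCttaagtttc
TNFAIP3: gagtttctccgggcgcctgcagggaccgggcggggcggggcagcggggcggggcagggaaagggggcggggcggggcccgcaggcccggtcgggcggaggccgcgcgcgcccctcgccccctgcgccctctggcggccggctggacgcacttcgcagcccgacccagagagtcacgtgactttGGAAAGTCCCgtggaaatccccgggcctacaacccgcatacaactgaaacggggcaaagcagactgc
IL32: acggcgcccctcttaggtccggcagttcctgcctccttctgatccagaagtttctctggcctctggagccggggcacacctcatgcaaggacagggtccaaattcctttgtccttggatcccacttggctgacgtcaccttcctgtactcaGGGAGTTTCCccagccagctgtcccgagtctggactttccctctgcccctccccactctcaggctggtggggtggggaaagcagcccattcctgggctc

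IFI6 had 3 matches in this window, and those farthest from the start lay 41 bases apart within a repeated stretch of 29 bases. IFI44L had 2 matches that lay 91 bases apart within a repeat of 85 bases. IFI27 had 2 matches on opposite strands, EPSTI1 had 1, and IFIT5 had 2 here and 1 more that crossed the start. Of the 122 genes, 84 had a promoter in the RefSeq table, which counts 300 bases (250 before and 50 after the start). In these windows the interferon response element was found in 7 genes (8.33%), against 3.65% of all 27305 promoters and 2.65% of the promoters of measured genes, and the further 2 genes were TNFSF9 and EMP3. OAS1 and IFI16 had a promoter in the table and no match in this window, and SLFN5 had no entry.

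The NF-kB site was found in TNFAIP3, IL32 and CCDC3 (3.57%), against 0.579% of all promoters and 0.536% of those of measured genes. The GATA site AGATAA was found in 7 genes (8.33%), against 10.5% of all promoters and 4.75% of those of measured genes. The AP-1 site TGANTCA was found in 6 (7.14%), against 7.76% of all and 4.26% of measured genes. For both sites the share of the 122 genes thus lay below that of all promoters and above that of measured genes. The TATA box TATAAA was found in 14 (16.7%), against 12.0% of all and 5.17% of measured genes, and the SMAD palindrome GTCTAGAC in 0, against 0.201% of all and 0.147% of measured genes. All motifs were searched on both strands, and none of the matches was tested for binding.

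**Figure D3:**
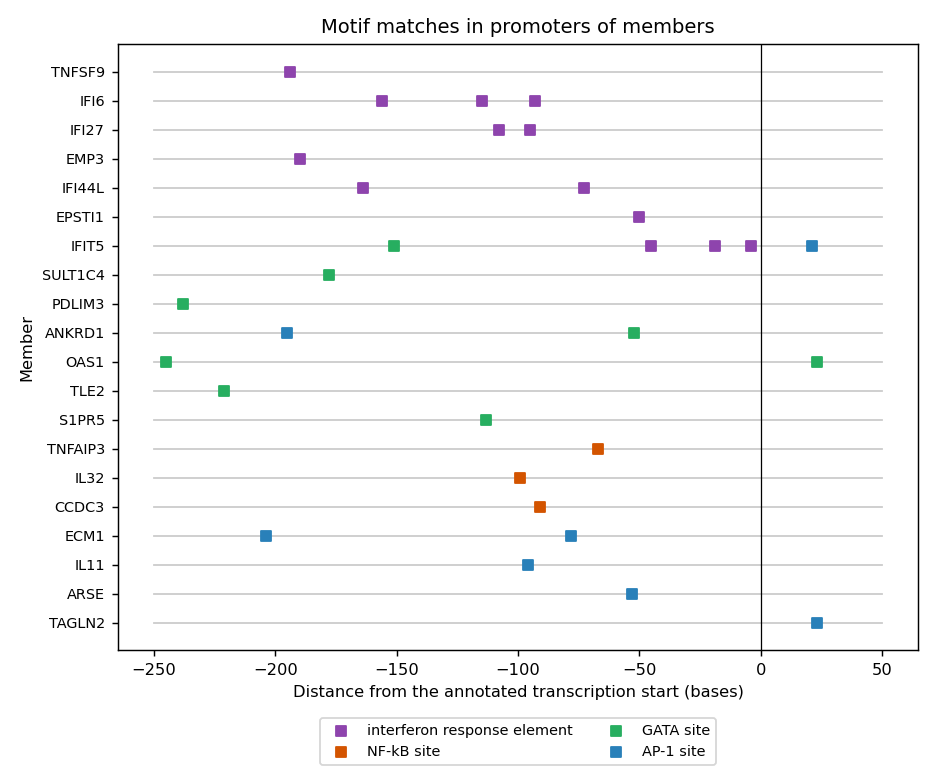
Positions of motif matches (squares) in the promoters of 20 genes, in bases from the annotated transcription start, with the searched window of 250 bases before and 50 bases after it as a gray line. Colors name the interferon response element, the NF-kB, GATA and AP-1 sites. IFI6 and IFIT5 each have 3 interferon response elements, while the NF-kB matches of TNFAIP3, IL32 and CCDC3 lie within 100 bases of the start.

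Endothelial and leukocyte genes were present in small number. Of 21 measured endothelial genes, 10 were raised in hEPS cells and 13 in primed hESCs, and 7 were raised in both (KLF2, MCAM, S1PR3, S1PR5, PGF, NOS3 and RASGRP3). NOS3, the endothelial nitric oxide synthase, had 19.4 FPKM in crotonate-treated and 4.17 FPKM in untreated hEPS cells, and 27.05 FPKM in crotonate-treated and 4.18 FPKM in untreated primed hESCs. MCAM, an adhesion protein of vessels and pericytes, had 39.9 FPKM in crotonate-treated and 7.79 FPKM in untreated hEPS cells, and 46.6 FPKM in crotonate-treated and 9.40 FPKM in untreated primed hESCs. RASGRP3, an exchange factor for RAS, had 3.88 FPKM in crotonate-treated and 0.488 FPKM in untreated hEPS cells, and 3.12 FPKM in crotonate-treated and 0.0923 FPKM in untreated primed hESCs. The 33 endothelial genes summed to 421 FPKM in crotonate-treated and 142 FPKM in untreated hEPS cells, and to 1001 FPKM in crotonate-treated and 183 FPKM in untreated primed hESCs. Of these genes, 22 reached 1 FPKM with and 17 without crotonate in hEPS cells, against 26 with and 13 without in primed hESCs. The defining endothelial gene CDH5 (VE-cadherin) was under 1 FPKM in all 5 columns. Other endothelial genes that did not meet the rule were higher in treated primed hESCs, among them PLVAP, a protein of endothelial diaphragms, at 56.3 FPKM in crotonate-treated and 0.105 FPKM in untreated primed hESCs, and TEK, the angiopoietin receptor, at 52.8 FPKM in crotonate-treated and 7.55 FPKM in untreated primed hESCs. In hEPS cells PLVAP had 0.671 FPKM with crotonate and 0.0268 FPKM without, and TEK had 1.38 FPKM with crotonate and 2.66 FPKM without. The part of such cells in the changes was not tested.

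Of 14 measured genes of leukocyte signaling, 8 were raised in each state and 4 in both, while 0 were lowered in hEPS cells and 1 in primed hESCs. ZAP70, a kinase of the T cell receptor, had 4.27 FPKM in crotonate-treated and 0.734 FPKM in untreated hEPS cells, and 30.9 FPKM in crotonate-treated and 0.204 FPKM in untreated primed hESCs. RAC2, a small GTPase of blood cells, had 23.5 FPKM in crotonate-treated and 4.42 FPKM in untreated hEPS cells, and 13.7 FPKM in crotonate-treated and 1.53 FPKM in untreated primed hESCs. CD300E, a receptor of myeloid cells, had 5.91 FPKM in crotonate-treated and 0.152 FPKM in untreated hEPS cells, and in primed hESCs 4.21 FPKM with crotonate while it was listed at 0 without. RAB37, a GTPase of secretory granules, had 5.41 FPKM in crotonate-treated and 0.666 FPKM in untreated hEPS cells, and 18.8 FPKM in crotonate-treated and 3.11 FPKM in untreated primed hESCs. PTPRC, which encodes the pan-leukocyte protein CD45, was listed at 0 or under 0.1 FPKM in all 5 columns.

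The remaining genes act in transport, metabolism, growth control and signaling. SLC40A1, the iron exporter ferroportin, had 24.6 FPKM in crotonate-treated and 3.38 FPKM in untreated hEPS cells, and 12.5 FPKM in crotonate-treated and 0.0543 FPKM in untreated primed hESCs. SLC16A3, the lactate exporter MCT4, had 54.9 FPKM in crotonate-treated and 5.39 FPKM in untreated hEPS cells, and 78.3 FPKM in crotonate-treated and 13.7 FPKM in untreated primed hESCs. TRPV2, a cation channel, had 10.4 FPKM in crotonate-treated and 0.765 FPKM in untreated hEPS cells, and 17.7 FPKM in crotonate-treated and 0.573 FPKM in untreated primed hESCs. SLC40A1 and TRPV2 were thus under 1 FPKM in untreated primed hESCs, whereas SLC16A3 was not. ELOVL2, an elongase of polyunsaturated fatty acids, had 21.5 FPKM in crotonate-treated and 1.26 FPKM in untreated hEPS cells, and 7.97 FPKM in crotonate-treated and 1.12 FPKM in untreated primed hESCs. Other enzymes were SULT1C4 (a sulfotransferase), CYGB (the oxygen-binding cytoglobin), ACHE (acetylcholinesterase), ARSE (an arylsulfatase, now ARSL), DIO3 (which inactivates thyroid hormone), MAN1A1 (a mannosidase of N-glycan trimming) and UAP1L1. Their changes lay between 1.75 and 2.54 in hEPS cells and between 1.71 and 3.14 in primed hESCs, and DIO3 was listed at 0 in untreated primed hESCs.

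Growth control was represented by the neighboring inhibitors of cyclin-dependent kinases, CDKN2B and CDKN2A. CDKN2B had 11.7 FPKM in crotonate-treated and 1.68 FPKM in untreated hEPS cells, and 16.8 FPKM in crotonate-treated and 0.0155 FPKM in untreated primed hESCs. CDKN2A had 7.67 FPKM in crotonate-treated and 1.49 FPKM in untreated hEPS cells, and 3.90 FPKM in crotonate-treated and 0.191 FPKM in untreated primed hESCs. Both were also expressed in Endoderm, at 34.4 and 11.7 FPKM. PHLDA2, an imprinted gene that limits placental growth, had 58.4 FPKM in crotonate-treated and 4.75 FPKM in untreated hEPS cells, and 25.4 FPKM in crotonate-treated and 7.45 FPKM in untreated primed hESCs. SERPINB9, an inhibitor of granzyme B, had 261 FPKM in crotonate-treated and 28.7 FPKM in untreated hEPS cells, and 33.2 FPKM in crotonate-treated and 6.85 FPKM in untreated primed hESCs. It was one of the genes with a larger change in hEPS cells.

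TMEM119, a membrane protein known from microglia and bone, had 10.9 FPKM in crotonate-treated and 0.790 FPKM in untreated hEPS cells, and 22.8 FPKM in crotonate-treated and 0.0449 FPKM in untreated primed hESCs. Signaling adaptors and regulators were SHC2 (an adaptor of receptor tyrosine kinases), SPSB1 (a ubiquitin ligase adaptor), DUSP8 (a MAP kinase phosphatase), RHOBTB3 (a BTB-domain protein), FAM65A (now RIPOR1) and EFHD1 (a calcium-binding protein). Their changes lay between 1.66 and 2.41 in hEPS cells and between 1.63 and 3.57 in primed hESCs. TCEAL7, SEZ6L, TMBIM1, TMEM54, TMEM200B, FAM89A, ITPRIPL2 and C8orf31 complete the 122, and no role is given for them here. These 8 changed by between 1.66 and 2.89 in hEPS cells and by between 1.66 and 4.08 in primed hESCs. C8orf31 is a synonym of LY6S-AS1 in RefSeq, an antisense RNA, and the sources used here do not state whether the counting used strand. Its reads cannot then be told apart from those of the gene on the other strand.

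**Figure D4:**
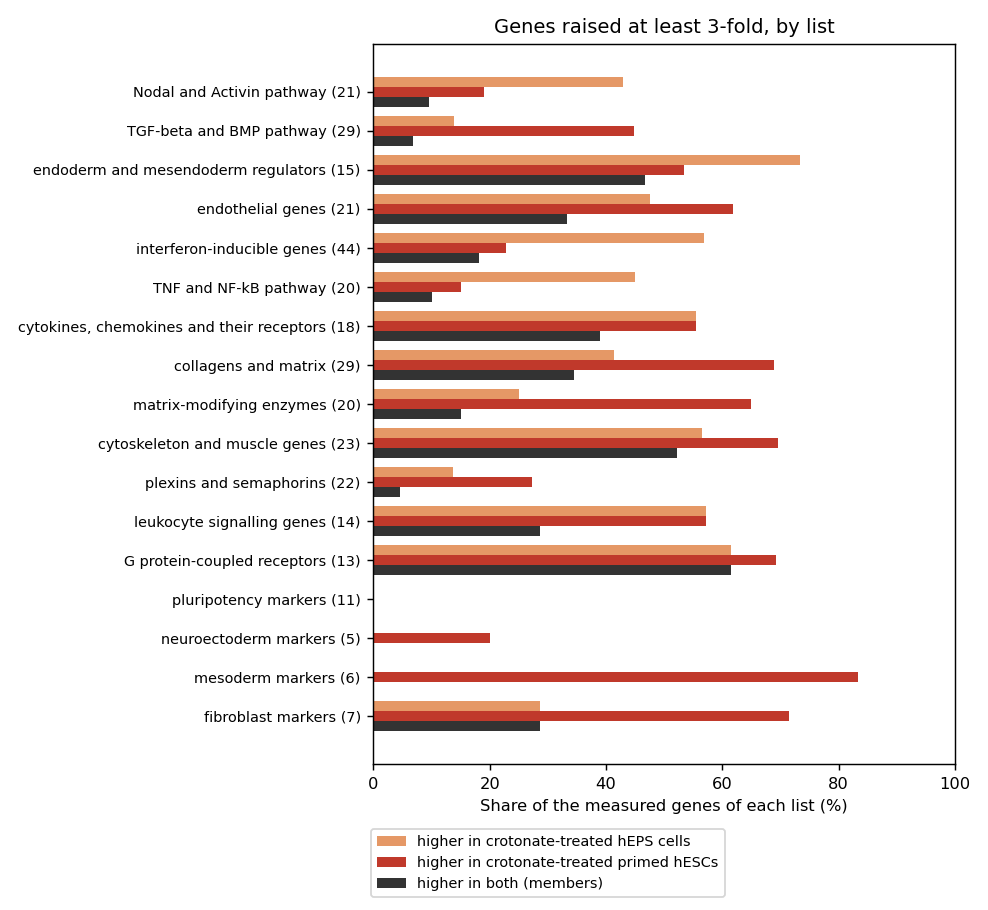
Share of the measured genes of each of 17 lists (number measured in parentheses) that were at least 3-fold higher in crotonate-treated hEPS cells (orange), in crotonate-treated primed hESCs (red) and in both (black). Against a background of 2.85%, 6.46% and 1.01% of all measured genes, the lists were chosen with earlier results known, so the bars describe the lists and test nothing. The pluripotency, neuroectoderm and mesoderm lists have no black bar.

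Levels in Endoderm were the measurement that the rule did not use. They come from a separate table, which may have been scaled on its own. Of the 122 genes, 116 (95.1%) reached 1 FPKM there and 77 (63.1%) reached 10 FPKM, against 92.5% and 51.5% of all measured genes. The median was 15.6 FPKM, or 4.05 on the log2(FPKM + 1) scale, against 10.5 FPKM or 3.52 for all measured genes. The share at 1 FPKM was thus close to that of all genes. Among the 660 genes raised in primed hESCs alone, 96.2% reached 1 FPKM and 62.7% reached 10 FPKM, with a median of 15.6 FPKM. Among the 223 genes raised in hEPS cells alone, 78.5% and 35.4% did, with a median of 5.28 FPKM. With 1 value per group, none of these differences was tested.

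The highest Endoderm levels belonged to KRT8 at 2024 FPKM, COL1A1 at 836 FPKM, IFI6 at 584 FPKM, COL6A2 at 576 FPKM and TAGLN2 at 499 FPKM. The 6 genes under 1 FPKM there were RAB37, CD300E, LHX1, CMKLR1, FOXQ1 and SOX17. A regulator used to define endoderm was therefore the lowest of all 122 in the group with that label. When the Endoderm level was set beside that of treated primed hESCs, it was within 3-fold on the log2(FPKM + 1) scale for 90 genes (73.8%), more than 3-fold higher for 8 and more than 3-fold lower for 24, and 96.4% of all measured genes lay within 3-fold. The members had been chosen for a high treated level, so this lower share is given as a description only. Among the 8, ANKRD1 was at 244 FPKM in Endoderm and 24.5 FPKM in crotonate-treated primed hESCs, OAS1 at 114 FPKM in Endoderm and 7.70 FPKM in crotonate-treated primed hESCs, and IFI27 at 80.9 FPKM in Endoderm and 5.38 FPKM in crotonate-treated primed hESCs. CCL2 was on the other side, at 9.99 FPKM in Endoderm and 73.3 FPKM in crotonate-treated primed hESCs. For 76 genes the Endoderm level lay between those of treated and untreated primed hESCs, for 43 at or above the treated level, and for 3 at or below the untreated level. Among the 660 genes raised in primed hESCs alone these counts were 466, 177 and 17. Over all 12111 measured genes they were 2052, 5313 and 7136, where a gene lowered by treatment can fall in both of the last groups. The rule sets the treated and untreated levels of the 122 genes far apart, so the 76 are a description only.

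Across the 122 genes, the log2(FPKM + 1) levels of Endoderm and crotonate-treated primed hESCs had a Pearson r of 0.765 and a Spearman coefficient of 0.717, against 0.923 and 0.917 over all 12111 genes. For Endoderm and crotonate-treated hEPS cells these were 0.649 and 0.613, against 0.808 and 0.795. The points are genes, which are not independent replicates, and columns of 1 line share the length and base composition of each transcript. The 122 genes had been chosen for their treated and untreated levels, so their lower coefficients are given as a description only.

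**Figure D5:**
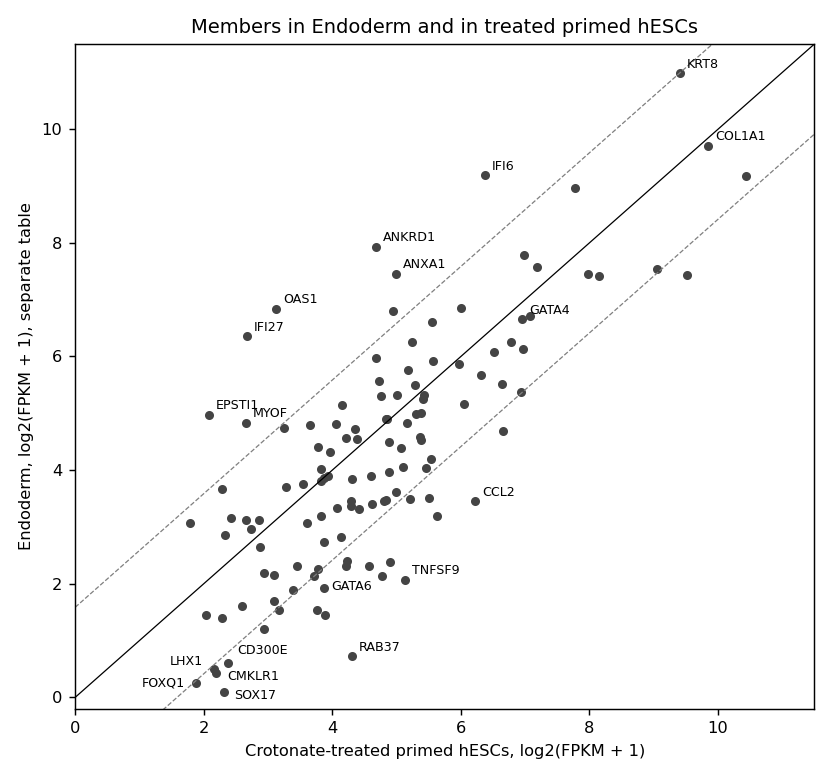
Level of each of the 122 genes in Endoderm (vertical axis) and in crotonate-treated primed hESCs (horizontal axis), both on the log2(FPKM + 1) scale and from separate tables. The solid line marks equal levels and the dashed lines a 3-fold difference. Of the points, 90 lie between the dashed lines, 8 above (among them IFI6, OAS1 and ANKRD1) and 24 below (among them CCL2, GATA6 and RAB37).

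The states differed most for a few genes. The change in hEPS cells exceeded that in primed hESCs by the widest margin for IFI27 (4.94 in hEPS cells and 2.06 in primed hESCs), LEFTY2 (5.83 in hEPS, 3.60 in primed), IFI44L (3.64 in hEPS, 1.79 in primed), PHLDA2 (3.37 in hEPS, 1.64 in primed) and ELOVL2 (3.31 in hEPS, 2.08 in primed). It was the smaller by the widest margin for COL6A3 (1.61 in hEPS cells and 8.52 in primed hESCs), GATA4 (2.18 in hEPS, 6.89 in primed), HAS2 (1.64 in hEPS, 5.45 in primed), ISLR (1.65 in hEPS, 5.09 in primed) and COL6A2 (1.77 in hEPS, 4.92 in primed). For GATA4 and ISLR the untreated levels differed too, at 20.9 and 5.05 FPKM in untreated hEPS cells and 0.0482 and 0.0826 FPKM in untreated primed hESCs. The order for IFI44L, listed at 0 in untreated primed hESCs, depended on the 1 FPKM added before taking logs. With 0.1 FPKM added instead, its change was 4.17 in hEPS cells and 4.67 in primed hESCs.

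At the edge of the rule, COL6A3, LMCD1 and ZAP70 were just inside, with a smaller change of 1.61, 1.61 and 1.60. CDR1, PLOD2 (a lysyl hydroxylase of collagen) and ELK3 (an ETS factor) were just outside, with a smaller change of 1.5849, 1.57 and 1.57.

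By position, 121 of the 122 were matched to protein-coding genes of GENCODE 44 on hg38, and they lay on 23 chromosomes, with 17 genes on chromosome 1, 14 on chromosome 19 and 12 on chromosome 2. Neighbors within 500 kb of each other were few. CDKN2A (chr9:21967752-21995301) and CDKN2B (chr9:22002903-22009305) lay 7602 bases apart. On chromosome 17, GPRC5C, CD300E and RAB37 followed each other, with 158232 and 46840 bases between them, and on chromosome 22, IL2RB, RAC2 and LGALS1 did so, with 50152 and 416042 bases between them. CMKLR1 and TMEM119 on chromosome 12 lay 250534 bases apart, and COL5A2 and SLC40A1 on chromosome 2 lay 335278 bases apart.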

How the data were processed

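The authors sequenced oligo(dT)-selected mRNA, mapped paired-end reads to hg38 and deposited FPKM values. The submitters' processing notes name TopHat 1.3.2, Cufflinks 1.1.0, HTSeq 0.6.0, StringTie 1.3.0 and edgeR, and the methods name TMM normalization. The sources used here do not state how the 2 samples of a group became 1 column, so no model was fitted. Identifiers that had become dates (28 in the hEPS table, 27 in each other) were dropped, and an identifier with several entries was represented by that of highest mean, which gave 26731 identifiers in the hEPS table and 19198 in the primed table, with 18437 in both. Among values below 0.2 FPKM, 81.3% of 879 genes (primed) and 91.4% of 1724 genes (hEPS) had ratios of whole numbers up to 12, within 0.05%, to a common factor, so single-read steps remain. The rule kept the same 122 genes without the filter at 1 FPKM. This was fixed in advance, because a gene that stays at or under 1 FPKM cannot reach a 3-fold rise of FPKM + 1.

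The members and gene lists were chosen with earlier results of these data known. Values are given in full for 60 genes by a fixed rule: the 15 with the largest smaller change, up to 5 per list, the 5 highest and 5 lowest in Endoderm, those at the threshold (3 on each side) and the 5 that differ most between states in each direction. Other members, and genes that are no members, were chosen for their values after these had been seen. The rule was run on simulated data only to check the code, and its error rate on these data was not assessed. Promoters came from RefSeq (GRCh38.p14) and coordinates from GENCODE 44. Calculations ran in Python 3.11.15 with pandas 2.3.3, numpy 2.4.6 and scipy 1.17.1, and plots were drawn with matplotlib 3.10.9.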

Additional observations from a re-analysis of the deposited data

How the results depend on the processing

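The number of genes raised in both states depended on the threshold and on the pseudocount. It was 361 at 2-fold and 56 at 4-fold, and 246 with a pseudocount of 0.1 FPKM, which raises the changes of low genes. With that pseudocount, 88.2% of the genes reached 1 FPKM in Endoderm, with a median log2 level of 3.10. With at least 5 FPKM in place of 1 FPKM the genes numbered 102, and 99.0% of them reached 1 FPKM in Endoderm. Quantile normalization gave 120 genes, 111 of them shared, and centering on the median change gave 151, including all 122. Joining older symbols, chosen after seeing the data, gave 123, with MELTF as the added gene. Of 120 changes of named genes under quantile normalization, 3 no longer passed the threshold: ZAP70 (1.48) and COL6A3 (1.47) in hEPS cells and LMCD1 (1.57) in primed hESCs. All 120 passed with the smaller pseudocount and with centering, but these 2 settings could only enlarge the changes of the 122 genes. The smaller pseudocount also reversed which state had the larger change for some genes near 0 in untreated primed hESCs, among them IFI44L and SOX17. No paired analysis was possible because the tables hold 1 column per group, and leaving out replicates was not possible for the same reason. Low levels rest on few reads.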
